A study of Rattus with 9 samples.

Results

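Smooth muscle cells with Des and Actg2 RNA in rat bile duct tissue were taken from a single-cell RNA sequencing (scRNA-seq) series of liver transplantation (LT), and 1081 of 150379 cells met the rule for them. A UMI (unique molecular identifier) tags 1 captured RNA molecule. A barcode counted as a cell when more than 400 and fewer than 6000 genes were detected, with mitochondrial RNA below 25% and hemoglobin RNA below 3% of its UMIs. A smooth muscle cell had at least 3 of the 8 genes Myh11, Tagln, Acta2, Cnn1, Des, Actg2, Rgs5 and Notch3, at least 3 UMIs of Acta2 and Tagln together, no UMI of Ptprc, Epcam or Lum, and more UMIs of Des and Actg2 than of Rgs5 and Notch3. With the last condition turned round, 555 cells were vascular mural cells, which serve as the comparison, and 74 cells had equal counts and were left out of both. The 11 genes of the rule chose the cells, so their values are given as a description, without a test.

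Smooth muscle contracts when calcium activates myosin light chain kinase, which phosphorylates the regulatory light chain of Myh11 myosin so that it pulls on actin filaments made from Acta2 and Actg2. Des encodes desmin, the intermediate filament that ties the contractile units together, and Actg2 encodes the gamma actin typical of visceral smooth muscle. Vascular pericytes and arterial mural cells are marked by Rgs5 and by the Notch3 receptor, and Des RNA was found in the mural cells of this series too. Smooth muscle is known to lower its contractile genes and raise matrix and inflammatory genes after injury, a change called phenotypic modulation.

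The series held 9 samples of rat bile duct. Sham was represented by 3 samples, each a single library. The ctrl group was LT with ischemic injury, sampled once at day 1, once at day 3 and once at day 7, every sample having 3 libraries. In the treat group the same LT was joined by ligation of the splenic and gastroduodenal arteries, done to raise the flow in the hepatic artery, with samples at the same 3 days and 8 libraries in all, 1 further library of day 3 not being used here. The animals described in the methods were Sprague-Dawley rats, and the raised-flow arm is named by the sample labels alone. Neither source tells if different rats gave the libraries of 1 sample. Their UMIs were therefore summed, and each p-value measures only the spread between these samples. The 3 samples of ctrl, and those of treat, also differ in day.

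The samples held 2456 to 34192 cells with 10721099 to 219549375 UMIs, and the smooth muscle cells in them held 237295 UMIs in sham 3 up to 2191484 UMIs in treat day 1. All 41 smooth muscle cells of ctrl day 3 came from 1 of its 3 libraries. No barcode was shared between smooth muscle cells of different libraries, and over 190 pairs of libraries at most 1.19% of the barcodes of the smaller one were shared. Across samples the median smooth muscle cell had 2856 UMIs in sham 2 and 12606 UMIs in ctrl day 1. RNA free in the suspension was estimated from empty barcodes at 2.21% to 5.77% of the UMIs of smooth muscle cells in 8 samples. In treat day 7 the estimate was 19.5%, against 1.73% in the mural cells of that sample. The estimate rests on myeloid, lymphoid and epithelial genes, so RNA of such genes inside the cells raises it too. Percentages of free RNA given for treat can therefore be too high. In treat day 7 the smooth muscle cells of library 2 held 7836 CPM (UMIs of a gene or list per 1000000 UMIs) of the myeloid marker list, against 183 and 2845 CPM in the other 2 libraries of that day.

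Within the 1081 cells, Tagln, an actin-binding protein of the contractile apparatus, had a UMI in 98.1% and Acta2 in 97.9%. Des had a UMI in 95.6% of the cells and Actg2 in 58.6%, so that 585 cells had both, 448 had Des alone and 48 had Actg2 alone. Myh11, the smooth muscle myosin heavy chain, was detected in 67.2% and Cnn1, which encodes calponin, in 41.7%. Rgs5 had a UMI in 43.8% and Notch3 in 11.4% of the cells, and 549 cells (50.8%) had neither. By sample, 54.2% to 70.9% of the cells had neither in sham, 31.1% to 64.2% in ctrl and 46.5% to 50.5% in treat, at unequal depth. These shares follow in part from the rule. Pooled over samples, Des was at 670.1 CPM in mural cells, 38.8 CPM in cells with Lum and 5.57 CPM in cells with Ptprc, and Actg2 at 86.8, 38.5 and 2.80 CPM in the same cells.

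Myh11 and Cnn1 were lower in all 6 transplanted samples than in any sham sample, while Des, Actg2 and Notch3 overlapped between the groups. Here and below, CPM of a gene in smooth muscle cells are UMIs summed over the cells of a sample, per 1000000 UMIs and scaled by the TMM factors of edgeR, and values of ctrl and treat are given in the order of days 1, 3 and 7. Myh11 was at 3800.3, 2965 and 2388 CPM in sham 1, 2 and 3, at 403, 595 and 679 CPM in ctrl and at 608, 1055 and 1126 CPM in treat. Acta2 was at 22690.0, 7307 and 5184 CPM in sham, 3336, 4226 and 4176 CPM in ctrl and 4042, 8705 and 3770.2 CPM in treat, and treat overlapped with sham. Tagln was at 21847, 12979.6 and 8968 CPM in sham, 6433, 7953 and 8161 CPM in ctrl and 6227, 12733 and 8412 CPM in treat, with every ctrl value below sham and treat day 3 within the sham range.
Des was at 3128, 1989 and 1678 CPM in sham, 1862, 2656 and 1233 CPM in ctrl and 1585, 2091 and 1324 CPM in treat, with ctrl day 3 above 2 of the 3 sham samples. Actg2 was at 3351, 1320.4 and 1043 CPM in sham, 629, 1499 and 1817 CPM in ctrl and 965, 1233 and 827 CPM in treat, and its values overlapped in all 3 groups. Rgs5 was at 168, 134 and 206 CPM in sham, 113, 482 and 415 CPM in ctrl and 223, 237 and 241 CPM in treat. Every treat value and those of ctrl days 3 and 7 lay above sham, and the part of this in the results below was not tested.

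Near the limits of the rule the cells held fewer UMIs of Acta2 and Tagln. The 129 cells with exactly 3 of the 8 genes had a median of 7 UMIs of Acta2 and Tagln, and Myh11 was detected in 1.55% of them. These cells were unevenly spread. They were 0 of 55, 2 of 97 and 7 of 48 smooth muscle cells in sham and 6 of 106, 6 of 41 and 14 of 135 in ctrl. In treat they were 32 of 226, 38 of 222 and 24 of 151. The 22 cells just outside, with only 2 of the 8 genes, had a median of 4 UMIs and no Myh11. The 107 cells just inside the condition on Des and Actg2 and the 74 cells with equal counts had medians of 10 and 11.5 UMIs of Acta2 and Tagln. Another 212 cells met every positive condition but had a UMI of Ptprc, Epcam or Lum, and their median was 38.5 UMIs, against 50 UMIs in the smooth muscle cells.

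Cells with Actg2 held more RNA of several contractile genes than the other smooth muscle cells. The 633 cells with an Actg2 UMI and the 448 without were summed apart in each sample, and the values below are means over 9 samples of plain CPM, given as a description because Actg2 is a gene of the rule. Every sample had more Cnn1 (583 against 47.2 CPM), Myl1 (153 against 9.88 CPM), an alkali light chain of myosin, and Csrp1 (2766 against 846 CPM), a LIM protein of smooth muscle, in the Actg2 cells. The matrix gene Eln, which encodes elastin (601 against 131 CPM), the ATP receptor gene P2rx1 (81.5 against 11.9 CPM) and Fbxl22 (197 against 45 CPM), an F-box protein of the sarcomere, were also higher in all 9 samples. In the other direction, the chemokine Ccl7 (65.8 against 387 CPM), the complement gene C7 (20.4 against 133 CPM), Vtn (33.7 against 142 CPM), which encodes vitronectin, and Ptn (269 against 868 CPM), which encodes pleiotrophin, were higher without Actg2 in all 9 samples. So were the pericyte gene Higd1b (81.6 against 206 CPM) and the ATP-sensitive potassium channel subunit Abcc9 (235 against 370.5 CPM). Mural genes did not all go this way. Sncg of the mural list (1980 against 566 CPM) was higher with Actg2 in all 9 samples, as were Mcam (316 against 196 CPM) and Hey2 (72.9 against 38.5 CPM). Cells with Actg2 had a median of 7124 UMIs and those without 5721 UMIs, and the part of this depth in the differences was not tested.

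Genes outside the rule also differed between smooth muscle and mural cells. The comparison used the 6 samples with at least 20 cells of both kinds (sham 2 and 3, ctrl day 7 and the 3 treat samples). Of 23836 gene symbols, taken without a filter on expression, 589 were higher and 412 lower in smooth muscle cells in every sample. This describes how the rule split the cells, and the number that chance would give was not tested. Outside the rule, the genes higher in every sample included Myl1, with mean plain CPM of 76.4 against 0.346 CPM. Rergl (61.6 against 0.786 CPM), Fbxl22 (136 against 14.9 CPM), P2rx1 (61.5 against 3.35 CPM), Sncg (1367 against 247 CPM), Pdlim3 (169 against 25.3 CPM), a LIM protein of the Z-disc, Srl (40.3 against 0.704 CPM), a protein of the sarcoplasmic reticulum, and Sorbs2 (330.5 against 63.7 CPM), an adaptor of the actin cytoskeleton, were others. The macrophage genes C1qa (159 against 8.48 CPM), C1qb (156 against 8.75 CPM) and C1qc (170.0 against 13.5 CPM) were also higher in every sample, and C1qa reached 638 CPM in treat day 7. Cells with a C1q UMI ranged from 2 of 48 in sham 3 to 58 of 151 in treat day 7, and free RNA could account for 46.1%, 44.9% and 35.3% of the C1qa UMIs in sham, ctrl and treat. Of the receptors by which gut and biliary muscle respond to acetylcholine, cholecystokinin, tachykinin and oxytocin, Chrm2, Cckar, Tacr2 and Oxtr had 0 of 9557507 UMIs, which allows up to 0.314 CPM each, and Chrm3 had 3 UMIs. Of the mural list, to which Sncg also belongs, Esam was at 335 and 339 plain CPM and Cox4i2 at 616 and 680 plain CPM in smooth muscle cells with and without Actg2. Against mural cells, Cox4i2 was among the genes lower in every sample, with mean plain CPM of 444 against 980 CPM. Higd1b (149 against 433 CPM) and Vtn (79.5 against 259 CPM) were others. Rgs5 was detected in 43.8% of the smooth muscle cells. Whether the cells lay in the wall of the duct or of vessels was not tested.

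Smooth muscle cells were 2.24%, 0.973% and 0.401% of the cells in the sham samples, 0.769%, 0.503% and 0.395% in ctrl, and 0.929%, 1.26% and 0.542% in treat. The mean share was 1.20% ± 0.941 (SD, n = 3) in sham, 0.556% ± 0.192 in ctrl and 0.909% ± 0.357 in treat. No difference passed the two-sided exact permutation test, with p = 0.3 for ctrl against sham, p = 0.8 for treat against sham and p = 0.2 for treat against ctrl, or 0.45, 0.8 and 0.45 after adjustment over the 3 comparisons, and 3 samples against 3 cannot give a p below 0.1. Treat against sham changed sign, from -0.295 to 0.222 percentage points, without sham 1, and to 0.166 percentage points among cells with no Ptprc UMI. Mural cells outnumbered smooth muscle cells in ctrl day 7 alone, with 232 against 135 cells.

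**Figure D1:**
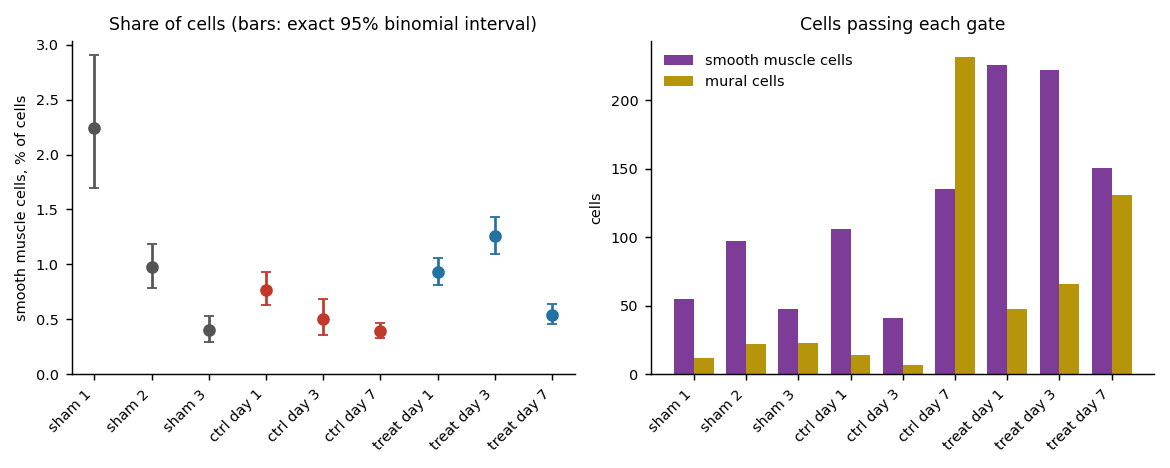
Left, the share of smooth muscle cells among all cells of each sample in percent, with exact 95% binomial intervals that cover counting error only. Right, the number of smooth muscle and mural cells in each sample. The sham shares run from 0.401% to 2.24%, and mural cells exceed smooth muscle cells only in ctrl day 7.

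The first comparison asked how these smooth muscle cells differed after LT with ischemic injury, ctrl against sham. Mylk, Tpm1, Flna and Dmd of the contractile list fell, the immediate early genes Atf3, Nr4a1, Nr4a2 and Klf4 fell with them, and Ndufa4l2, Abcc9, Sod2 and Lcn2 were among the genes that rose. By the quasi-likelihood test of edgeR, 104 of 8145 genes passed an adjusted p of 0.05 (1.28%), 23 higher (0.282%) and 81 lower (0.994%). No gene was called without sham 2, with 1170 at an unadjusted p under 0.05, and none without ctrl day 3, with 1077, against 1294 with all samples. DESeq2 called 262 genes.

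In the contractile list, 8 of 32 tested genes fell, none rose, and 31 had a negative log2 fold change, with a median of -1.14 against 0.00 over all genes tested, of which 50.1% were above 0. The values of ctrl and sham did not overlap in 19 of them, all lower in ctrl, against 10.9% of all genes lower and 10.6% higher in this way. Across 22 settings of the processing the median of the list ran from -1.37 to -0.83. Mylk, which encodes myosin light chain kinase, was at 692, 971 and 877 CPM in sham, 158, 229 and 333 CPM in ctrl and 234, 559.8 and 461 CPM in treat. The ctrl values lay below every sham value (log2 fold change -1.82, SE 0.35, adjusted p = 0.0294, or 3.53-fold lower).
Its substrate, the regulatory light chain gene Myl9, was at 5398, 4798 and 4121 CPM in sham and 767, 1415 and 1959.8 CPM in ctrl, again without overlap, but the difference did not pass after adjustment (log2 fold change -1.79, SE 0.45, adjusted p = 0.0861). Ppp1r14a, an inhibitor of myosin phosphatase, was at 1878 ± 771 CPM in sham and 1045 ± 247 CPM in ctrl (SD, n = 3; adjusted p = 0.202). The essential light chain gene Myl6, used by most cells, was at 7297 ± 1574 and 4919 ± 738 CPM (adjusted p = 0.252).

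Among the genes of the thin filament, Tpm1, which encodes a tropomyosin, was at 5233, 3728 and 2503 CPM in sham and 1165, 1462 and 1685 CPM in ctrl and fell (log2 fold change -1.41, SE 0.30, adjusted p = 0.0415). Tpm2 was at 6779.8, 4512 and 2812 CPM in sham and 2426, 1957 and 2419 CPM in ctrl and did not pass (log2 fold change -1.05, SE 0.29, adjusted p = 0.0947). Cald1, which encodes caldesmon, was at 673 ± 268 CPM in ctrl and 865 ± 1.51 CPM in sham (SD, n = 3; adjusted p = 0.562), and Actb, the actin of the general cytoskeleton, had 2491 ± 711 against 2847 ± 807 CPM (adjusted p = 0.774).
Flna encodes filamin A, which cross-links actin at the membrane. It was at 1739, 1438 and 1146 CPM in sham, 486, 460.0 and 608 CPM in ctrl and 867, 751 and 669 CPM in treat, and fell in ctrl (log2 fold change -1.48, SE 0.24, adjusted p = 0.0205). Nexn, which encodes the actin-binding protein nexilin, was at 384, 173 and 202 CPM in sham and 41.6, 78.3 and 80.6 CPM in ctrl (log2 fold change -1.94, SE 0.37, adjusted p = 0.0291).

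The lowest ratios among the called genes of the list belonged to Dmd and Itga8, which anchor the contractile units to membrane and matrix. Dmd, which encodes dystrophin, was at 153, 125 and 123 CPM in sham, 11.7, 25.4 and 21.8 CPM in ctrl and 17.8, 41.7 and 41.7 CPM in treat, 7.05-fold lower in ctrl (log2 fold change -2.82, SE 0.39, adjusted p = 0.0144). Itga8, the alpha 8 integrin of smooth muscle, was at 104, 90.2 and 95.2 CPM in sham and 4.38, 15.7 and 25 CPM in ctrl (log2 fold change -2.70, SE 0.52, adjusted p = 0.0294). Both were low in every ctrl sample, and Itga8 was lowest at day 1.
Ldb3, a Z-disc protein, and Hspb6, a small heat-shock protein of muscle, fell with log2 fold changes of -1.43 (adjusted p = 0.0484) and -1.76 (adjusted p = 0.0352). Vcl, which encodes vinculin of the dense plaque, was at 313 ± 113 CPM in ctrl and 406 ± 88.2 CPM in sham (SD, n = 3; adjusted p = 0.596). Outside the lists, the F-box gene Fbxl22 was at 345, 224 and 238 CPM in sham and 24.8, 17.6 and 62.0 CPM in ctrl (log2 fold change -2.90, SE 0.53, adjusted p = 0.0295).

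**Figure D2:**
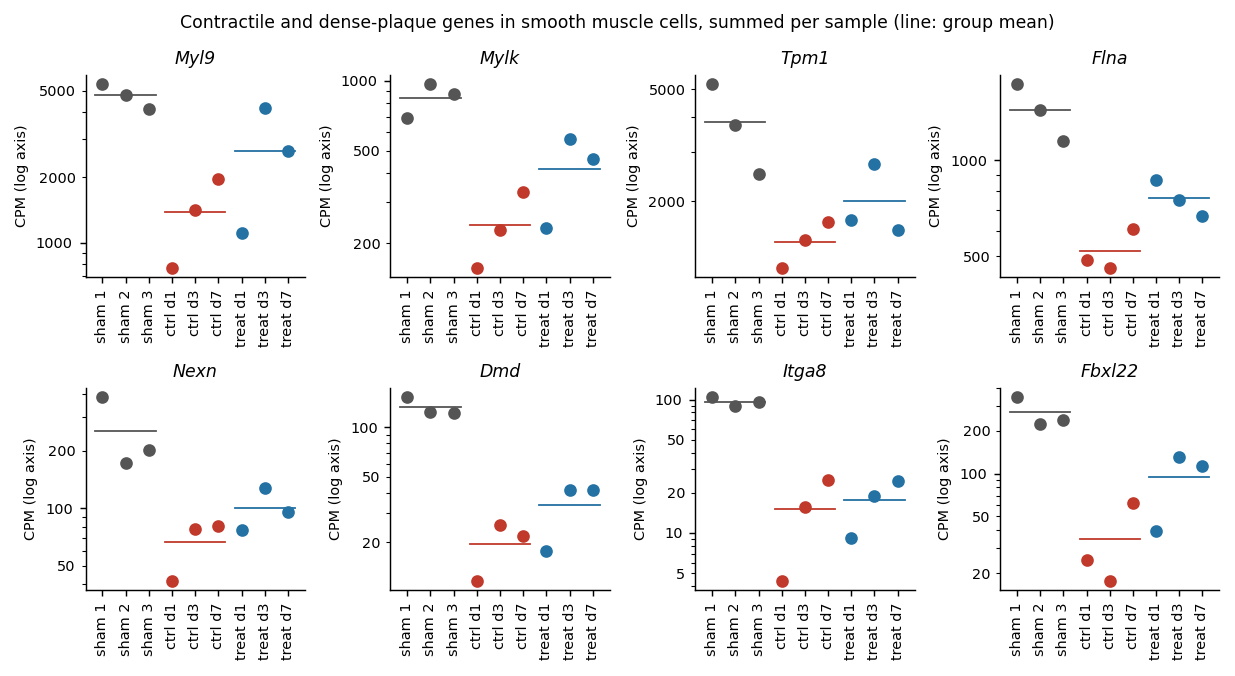
CPM on a log axis of Myl9, Mylk, Tpm1, Flna, Nexn, Dmd, Itga8 and Fbxl22 in the smooth muscle cells of each sample, with a line at each group mean. Every ctrl value lies below every sham value in all 8 panels, while treat day 3 reaches the sham range for Myl9 and Tpm1.

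Single cells were then described without a test. The contractile list, which holds no gene of the rule, took a median of 4.59%, 4.15% and 2.72% of the UMIs of a cell in sham 1, 2 and 3, 1.43%, 1.73% and 1.66% in ctrl, and 1.58%, 2.08% and 1.61% in treat. When cells pooled over the samples of a group were split into 4 classes of UMI number, holding 18 to 101 cells in sham, the median was 3.67% to 4.15% in sham, 1.37% to 1.76% in ctrl and 1.32% to 2.13% in treat across the classes. For another set of sums per sample, the UMIs of the 8 listed genes of the rule were thinned to a depth of 2000 UMIs per cell. Cells with fewer UMIs were left out, 92 in all, with 23 in sham 2, 28 in treat day 1 and 4 in ctrl day 1. In this setting 4 contractile genes fell, the median was -1.01 and 38 genes were called in all. Without sham 1 the median was -0.83 and 1 contractile gene passed. With a stricter rule, which among other limits asks for at least 5 of the 8 genes, the median was -1.02 and 7 contractile genes fell. In cells with Myh11 and Cnn1, 29 of 30 contractile genes were negative, none passed and the median was -1.03.

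**Figure D3:**
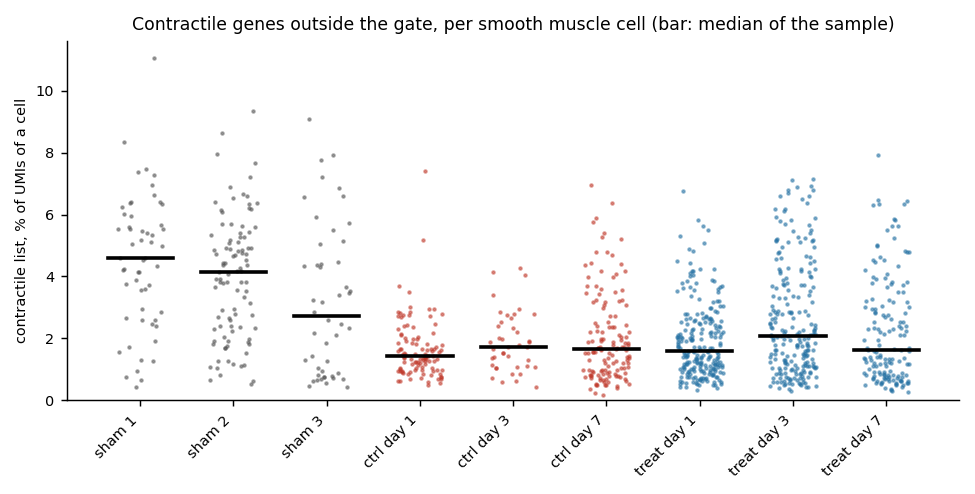
Each point is 1 smooth muscle cell, and the vertical axis is the percent of its UMIs from the contractile list, which holds no gene of the rule, with a bar at the median of each sample. The sham medians lie between 2.72% and 4.59% and those of the 6 transplanted samples between 1.43% and 2.08%, and each sample holds cells across a wide range.

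Of the genes that regulate smooth muscle transcription, 1 of 13 tested fell in ctrl and none rose. This was Klf4, a transcription factor that represses contractile genes and is itself induced early by stress, with 1066, 731 and 916 CPM in sham, 413, 298 and 371 CPM in ctrl and 576, 479 and 556 CPM in treat (log2 fold change -1.32, SE 0.24, adjusted p = 0.0282). Srf, the factor that drives contractile genes, was at 104, 78.6 and 99.2 CPM in sham and 52.5, 45 and 59.6 CPM in ctrl without overlap, and did not pass (log2 fold change -0.83, SE 0.30, adjusted p = 0.199). Mef2c was at 245, 229 and 127 CPM in sham and 73.0, 145 and 118 CPM in ctrl (adjusted p = 0.268).

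In the list of channels, calcium handling and receptors, 1 of 26 tested genes rose and none fell. Abcc9, the sulfonylurea receptor subunit of the vascular ATP-sensitive potassium channel, was at 107, 213 and 206 CPM in sham, 438, 431 and 387 CPM in ctrl and 272, 262 and 255 CPM in treat (log2 fold change 1.26, SE 0.27, adjusted p = 0.0415). Its pore partner Kcnj8 was at 24.3, 43.9 and 87.3 CPM in sham and 171, 145 and 131 CPM in ctrl (log2 fold change 1.59, SE 0.36, adjusted p = 0.0515) and did not pass. Pln, which encodes phospholamban, the brake on the calcium pump of the sarcoplasmic reticulum, was at 874, 678 and 444 CPM in sham, 75.9, 84.2 and 193 CPM in ctrl and 64.9, 421 and 371 CPM in treat, below sham in all 6 transplanted samples.
The differences of Pln did not pass (adjusted p = 0.126 for ctrl and 0.554 for treat). The calcium pump gene Atp2a2 was at 493, 594 and 516 CPM in sham and 329.7, 289.7 and 283 CPM in ctrl (adjusted p = 0.0861). By the rule for naming genes, the potassium channel Kcnh2 (21.9, 32.4 and 19.8 CPM in sham and 1.46, 0 and 2.42 CPM in ctrl, log2 fold change -3.91, SE 0.69, adjusted p = 0.0251) and the calcium pump Atp2a3 (51.0, 43.9 and 43.6 CPM in sham and 5.84, 5.87 and 6.45 CPM in ctrl, log2 fold change -2.91, SE 0.51, adjusted p = 0.0251) fell. The endothelin receptor gene Ednra was at 58.3, 78.6 and 67.4 CPM in sham and 122, 231 and 115 CPM in ctrl, above sham in all 3 samples, and did not pass (log2 fold change 1.18, SE 0.32, adjusted p = 0.0861).

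Other genes with the lowest ratios, chosen by the rule for naming genes, were as follows. Grip2, a scaffold of glutamate receptors, was at 70.4, 55.5 and 35.7 CPM in sham and 3.65, 1.96 and 1.61 CPM in ctrl (log2 fold change -4.37, SE 0.73, adjusted p = 0.0226). Akap6, which anchors protein kinase A at the sarcoplasmic reticulum of muscle, was at 55.9, 13.9 and 31.7 CPM in sham and 1.46, 5.87 and 3.22 CPM in ctrl (log2 fold change -3.44, SE 0.70, adjusted p = 0.0333). Sh3bgr, Dpep1, a dipeptidase, and Ntrk2, the receptor of brain-derived neurotrophic factor, fell with log2 fold changes of -3.71, -2.72 and -2.71 (adjusted p = 0.0294, 0.0363 and 0.0456).

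Immediate early genes respond within minutes to stretch, growth factors and tissue handling. In that list 4 of 25 tested genes fell in ctrl, none rose and none was positive, with a median log2 fold change of -0.90. Atf3 was at 2057, 1279 and 1432 CPM in sham, 554, 483 and 592 CPM in ctrl and 420.1, 939.5 and 822 CPM in treat (log2 fold change -1.55, SE 0.31, adjusted p = 0.0295). The orphan nuclear receptors Nr4a1 (log2 fold change -1.23, SE 0.22, adjusted p = 0.0251) and Nr4a2 (log2 fold change -1.62, SE 0.32, adjusted p = 0.0294) fell too, as did Klf4, named above. Fos was at 4454, 1901 and 1809 CPM in sham and 1366, 1717 and 1146 CPM in ctrl, below sham in every sample, and did not pass (log2 fold change -0.95, SE 0.37, adjusted p = 0.227). The stress list had 1 gene that fell among 29, Ddit3, a transcription factor of the unfolded protein response (log2 fold change -1.40, SE 0.29, adjusted p = 0.0321).

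Among the genes that rose in ctrl was Ndufa4l2, a mitochondrial protein induced by hypoxia and abundant in pericytes, at 143, 245 and 190.4 CPM in sham, 766, 1118 and 484 CPM in ctrl and 297, 289 and 442 CPM in treat, 4.08-fold higher in ctrl (log2 fold change 2.03, SE 0.34, adjusted p = 0.0205). It and Abcc9 were the 2 genes of the mural list that rose among 22, none of which fell, and the median of that list was 0.10. Sod2, the mitochondrial superoxide dismutase, was at 325, 393 and 393 CPM in sham and 1452, 1421 and 589 CPM in ctrl (log2 fold change 1.64, SE 0.34, adjusted p = 0.0352).
C1qtnf1, a C1q-related secreted protein, was at 136, 178 and 349 CPM in sham and 819, 920.0 and 434 CPM in ctrl (log2 fold change 1.73, SE 0.39, adjusted p = 0.0496). Col5a3, a chain of type V collagen, was at 7.28, 13.9 and 27.8 CPM in sham and 68.6, 68.5 and 143 CPM in ctrl (log2 fold change 2.63, SE 0.58, adjusted p = 0.0496), and the aminotransferase gene Bcat1 at 4.86, 9.25 and 0 CPM in sham and 60.5, 31.3 and 54.0 CPM in ctrl (log2 fold change 3.18, SE 0.70, adjusted p = 0.0474). Sfxn1, a mitochondrial serine carrier, Nipsnap3b and Ctsc, the protease cathepsin C, rose with log2 fold changes of 2.83, 2.18 and 2.18 (adjusted p = 0.0294, 0.0294 and 0.035).

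Of 30 inflammatory genes tested, 3 rose in ctrl and none fell, with a median of -0.04. Besides Sod2 these were Pla2g2a, a secreted phospholipase of the acute phase (2.43, 9.25 and 0 CPM in sham and 54.0, 80.3 and 95.9 CPM in ctrl, log2 fold change 4.06, SE 0.85, adjusted p = 0.0484), and Lcn2. Lcn2 encodes lipocalin 2 and was at 9.71, 23.1 and 11.9 CPM in sham and 117, 92.0 and 96.7 CPM in ctrl (log2 fold change 2.73, SE 0.58, adjusted p = 0.0469). Free RNA could account for 13.4% of the Lcn2 UMIs in ctrl. The chemokine Ccl2 was at 342, 587 and 468 CPM in sham and 693, 1081 and 683 CPM in ctrl (adjusted p = 0.417) and Cxcl1 at 459, 657 and 1209.7 CPM in sham and 794, 793 and 1699.5 CPM in ctrl (adjusted p = 0.723). S100a8 and S100a9, which are neutrophil genes, also passed, with 2 and 3 UMIs in sham and 373 and 1009 UMIs in ctrl, but free RNA alone could account for 169.9% and 131% of those UMIs. The whole myeloid list, of which 1 of 22 genes was at 0 in every sample, was at 123 to 430 CPM in sham, 918 to 1893 CPM in ctrl and 517 to 4774 CPM in treat, and its part in these results was not tested.

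In the remaining lists few genes passed in ctrl. No gene of 40 in the matrix list passed, with a median of 0.45 that ran from -0.015 to 0.69 across 22 settings. Timp1, an inhibitor of matrix proteases, was at 631, 837 and 726 CPM in sham and 2798, 1640.3 and 1463 CPM in ctrl without overlap (log2 fold change 1.43, SE 0.36, adjusted p = 0.078). No gene of 25 in the hypoxia and glycolysis list passed, with a median of 0.45, and none of 32 genes of the respiratory chain, with a median of -0.02. In the fibroblast list 2 of 13 genes fell, Ogn (log2 fold change -2.23, SE 0.41, adjusted p = 0.0282) and Pi16 (log2 fold change -2.51, SE 0.50, adjusted p = 0.0301), and the list summed to 447 to 1678 CPM in sham and 513 to 2545 CPM in ctrl. Id4, a target of BMP signalling, fell as the 1 called gene among 32 of the TGF-beta and BMP list (log2 fold change -1.25, SE 0.28, adjusted p = 0.0487). Ifitm3, a membrane protein that blocks virus entry, rose as the 1 called gene of 32 in the interferon list, with 1382, 1383 and 1729 CPM in sham and 4888, 2958 and 2669 CPM in ctrl (log2 fold change 1.23, SE 0.27, adjusted p = 0.0474). The median of that list was 1.43, and 0.72 to 1.77 across 22 settings, with the lowest value without ctrl day 7. None of 22 cell cycle genes passed, and Klf4 was the 1 called gene of 19 in the list of phenotypic modulation.

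Lymphoid markers summed to 0 to 176 CPM, epithelial markers to 119 to 472 CPM and striated muscle markers to 44.8 to 549 CPM across the samples. Endothelial markers were highest in sham 1, at 9048 CPM over 16 genes, against 1741 and 2570 CPM in the other sham samples, 953 to 1451 CPM in ctrl and 1828 to 2591 CPM in treat. In sham 1, 1 cell held 3443 of the 3726 endothelial UMIs, 3138 of them from the lymphatic chemokine Ccl21. In plain CPM the list was at 8513 CPM in sham 1 with that cell and at 717 CPM without it. Without the 59 cells with over 1% of UMIs from other cell types, the contractile list kept its median at -1.19 with 9 genes lower.

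The second comparison asked the same of the raised-flow arm, treat against sham. Contractile and immediate early genes had negative medians here too, and 1 gene passed. By edgeR 1 of 8145 genes was called (0.0123%), with 877 at an unadjusted p under 0.05, and DESeq2 called 75. The 1 gene was Clps, which encodes pancreatic colipase, lower in treat with 65 UMIs in sham and 3 in treat, and free RNA could account for 110.0% of its UMIs in sham. It falls outside the rule for naming genes and is named as the only call. The comparison shares its sham samples with the one above.

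In the contractile list no gene of 32 passed in treat, 29 were negative, where 50.7% of all genes were above 0, and the median was -0.92, with -1.13 to -0.56 across settings. In 14 of them treat lay below sham without overlap and in none above, against 9.37% and 8.24% of all genes. Mylk was at 847 ± 142 CPM in sham and 418 ± 167 CPM in treat (SD, n = 3; log2 fold change -1.02, SE 0.34, adjusted p = 0.31). Dmd and Itga8 were among the 10 genes of smallest p that met the conditions of the naming rule, which include groups without overlap. Their log2 fold changes were -2.0 and -2.48, with adjusted p = 0.113 and 0.139. Rasl11a, a small GTPase, was at 653, 585 and 420.4 CPM in sham and 95.5, 196 and 151 CPM in treat (log2 fold change -1.91, SE 0.30, adjusted p = 0.0907). Speg, a kinase of striated and smooth muscle, had a log2 fold change of -1.50 (adjusted p = 0.127). Srl had one of -1.60 (adjusted p = 0.127). Asb4 and the neurotrophin gene Ntf3 had log2 fold changes of -2.46 and -2.25 (adjusted p = 0.127 and 0.139). Higher in treat were Mnda (log2 fold change 1.58, SE 0.28, adjusted p = 0.107) and Psmb10, a subunit of the immunoproteasome (53.4, 64.7 and 79.3 CPM in sham and 136, 421 and 347 CPM in treat, log2 fold change 2.21, SE 0.39, adjusted p = 0.107). None of these passed.

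Immediate early genes had a median of -0.68 in treat, with 23 of 25 negative and none called, and Atf3 was at 727 ± 272 CPM against 1589 ± 412 CPM in sham (SD, n = 3; log2 fold change -1.13, SE 0.30, adjusted p = 0.203). All 32 tested interferon-responsive genes were positive, with a median of 1.98, and none passed. Ccl2 was at 1007, 4149 and 1597 CPM in treat against 342, 587 and 468 CPM in sham (log2 fold change 2.27, SE 0.48, adjusted p = 0.149), with the highest value at day 3. Hypoxia genes had a median of 0.12 and none of 25 passed.

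The third comparison set the arms against each other, treat against ctrl, which asks what the added arterial flow changed. By edgeR no gene of 8145 passed (0.0%), with 339 at an unadjusted p under 0.05, and DESeq2 called 4. With the day as a block, so that samples of the same day were compared, 19 genes passed, 17 higher and 2 lower in treat. The contractile list had a median of 0.33, with 25 of 32 genes higher in treat, against 48.9% of all genes, and none called, and the range across settings was 0.11 to 0.60. In 2 genes treat lay above ctrl without overlap and in none below, against 5.81% and 4.04% of all genes.

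The genes of smallest p named here were chosen among genes that met the naming rule. That rule asks for arms without overlap, so their separate values follow from the choice. Cx3cl1, which encodes the chemokine fractalkine, was at 12.8, 26.2 and 51.5 CPM in treat and 2.92, 1.96 and 5.64 CPM in ctrl (log2 fold change 2.93, SE 0.57, adjusted p = 0.456). With the block it passed (log2 fold change 2.91, SE 0.42, adjusted p = 0.0105). Ch25h, a cholesterol hydroxylase induced by interferon, was at 161, 310.0 and 217 CPM in treat and 82.4, 84.2 and 62.0 CPM in ctrl, and in sham at 248, 157 and 305 CPM (log2 fold change 1.59, SE 0.31, adjusted p = 0.456, and with the block log2 fold change 1.53, SE 0.23, adjusted p = 0.0105). Bag3, a chaperone of the actin cytoskeleton, was at 168, 209.8 and 246 CPM in treat, 83.9, 56.8 and 105 CPM in ctrl and 172, 187 and 167 CPM in sham (log2 fold change 1.33, SE 0.27, adjusted p = 0.456, and with the block log2 fold change 1.33, SE 0.23, adjusted p = 0.017). For Ch25h and Bag3 treat lay nearer to sham than ctrl did.

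Cwc25 (log2 fold change 1.33, SE 0.30, adjusted p = 0.929) and Lims2 (log2 fold change 1.59, SE 0.38, adjusted p = 0.982) were higher in treat and did not pass without the block. Neither did Itpkc, a kinase of inositol trisphosphate (log2 fold change 1.21, SE 0.31, adjusted p = 0.999), Taf15 (log2 fold change 1.34, SE 0.35, adjusted p = 0.999) or the growth factor gene Igf2 (log2 fold change 1.84, SE 0.47, adjusted p = 0.999). Ndufa4l2 was lower in treat and did not pass either (log2 fold change -1.20, SE 0.32, adjusted p = 0.999). Of these 6 genes, Cwc25 alone passed with the block (log2 fold change 1.32, SE 0.24, adjusted p = 0.0244). With the day as a block, the interferon-responsive genes Ubd (log2 fold change 2.55, SE 0.28, adjusted p = 0.000785) and Gbp5 (log2 fold change 2.28, SE 0.30, adjusted p = 0.00457) were higher in treat. Gbp2 (log2 fold change 1.72, SE 0.26, adjusted p = 0.0105) and Tap1 (log2 fold change 1.5, SE 0.24, adjusted p = 0.0115) were higher too. So were the transcription factor Irf8 (log2 fold change 2.75, SE 0.45, adjusted p = 0.0183), which is outside the rule for naming genes, and the adhesion gene Vcam1 (log2 fold change 1.95, SE 0.30, adjusted p = 0.0105). The class II gene RT1-Ba (log2 fold change 1.81, SE 0.30, adjusted p = 0.0147) and the endothelial marker Vwf (log2 fold change 1.67, SE 0.31, adjusted p = 0.0319), which are outside the rule for naming genes, passed as well. Of 15 endothelial markers tested, 14 were positive without the block, with a median of 0.79 and none called. The list summed to 1828 to 2591 CPM in treat, above the 953 to 1451 CPM of ctrl. Of 15 myeloid markers tested, 11 were positive and 4 negative without the block, with a median of 0.56 and none called. That list summed to 517, 934 and 4774 CPM in treat and 918, 1893 and 1469 CPM in ctrl. The part of either list in the differences between the arms was not tested. Pi15, also outside the rule for naming genes (log2 fold change -1.23, SE 0.22, adjusted p = 0.0249), and Tnnt2, a troponin T (log2 fold change -1.63, SE 0.27, adjusted p = 0.0147), were lower.
With 1 sample per arm and day, the residual spread of the fit with the block is the part of the arm difference that varied between days. Spread between libraries does not enter that fit. In plain CPM the interferon list was at 16456, 15618 and 39525 CPM in libraries 1, 2 and 3 of ctrl day 7. The libraries of treat days 3 and 7 were at 28880 to 36355 CPM.

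Time after LT was examined next. A comparison of days 3 and 7 with day 1 over the 6 transplanted samples, with the arm as a term, was added after the data were seen, and day 1 is represented by 2 samples. By edgeR 747 of 8361 genes passed (8.93%), 370 higher (4.43%) and 377 lower (4.51%) at the later days, and leaving out single samples gave 105 to 727. The calls fell to 105 without treat day 1, to 227 without ctrl day 1 and to 334 and 395 without treat day 7 and ctrl day 7. Of the called genes named below, Actg1, Dmd, Sparc and Vim passed in none of the 6 fits with 1 sample left out. Bgn, Eno1, P2rx1 and Laptm5 passed in 1, and Itga8, Casq2, Mrvi1, Pgk1, Hspa5, Cxcl11 and Cited1 in 2.

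Of 32 interferon-responsive genes tested, 20 were higher at days 3 and 7 and none lower, falling to 10 without treat day 1 and 14 without treat day 7, with 31 positive against 52.5% of all genes. Their median log2 fold change was 2.64, against 0.04 over all genes tested. The list summed to 4138, 7219 and 8400 CPM in sham, 9381, 13595 and 18562 CPM in ctrl, and 6005, 36239 and 32113 CPM in treat. All later samples lay above sham and day 1, and treat day 3 was the highest. Libraries of 1 sample differed, and the 17 cells of library 3 of ctrl day 7 held 39525 plain CPM of the list. Myeloid markers moved in the same direction, with 15 of 17 positive, a median of 1.92 and Laptm5 called (adjusted p = 0.0426). Of the 17, 11 were higher without overlap, against 15.0% of all genes. That list summed to 918, 1893 and 1469 CPM in ctrl and 517, 934 and 4774 CPM in treat, and its part in the rise of the interferon list was not tested.

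Among the ligands, Cxcl9, a chemokine for T cells induced by interferon gamma, was at 0, 37.0 and 51.6 CPM in sham, 2.19, 529 and 720.4 CPM in ctrl and 0.457, 3839 and 2123 CPM in treat (adjusted p = 0.00395). Cxcl10 was at 12.1, 150.3 and 305 CPM in sham, 60.5, 765 and 680.1 CPM in ctrl and 35.7, 3339.6 and 1320.3 CPM in treat and did not pass (log2 fold change 4.67, SE 0.97, adjusted p = 0.0771). Cxcl11 had 1 UMI at day 1 and 3570 UMIs later, a ratio of 2824 with an exact 95% counting interval of 507 to 111573, and just passed (adjusted p = 0.04997). The UMIs of ctrl day 3 came from 5 of its 41 cells for Cxcl9 and from 2 for Cxcl11. Both later samples of each arm exceeded the day 1 sample for all 3 chemokines.
Irf1, a transcription factor of the interferon response, was at 165, 275 and 357 CPM in sham, 75.9, 258 and 179 CPM in ctrl and 54.4, 616 and 381 CPM in treat (log2 fold change 2.3, SE 0.47, adjusted p = 0.0302), and here sham lay above day 1.

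Of the guanylate-binding GTPases, Gbp2 was at 9.71, 27.7 and 39.7 CPM in sham, 6.57, 129 and 125 CPM in ctrl and 13.3, 602 and 364 CPM in treat (log2 fold change 4.84, SE 0.36, adjusted p = 1.64e-05), and Gbp5 rose with a log2 fold change of 6.21 (adjusted p = 6.75e-05). In antigen presentation, the immunoproteasome subunit Psmb9 was at 77.7, 97.1 and 87.3 CPM in sham, 58.4, 325 and 454 CPM in ctrl and 67.7, 1096 and 852 CPM in treat (log2 fold change 3.28, SE 0.32, adjusted p = 0.000146). The peptide transporter Tap1 (log2 fold change 3.23, SE 0.30, adjusted p = 6.75e-05) and the class I light chain B2m (1724, 3032 and 3716 CPM in sham, 2129, 5743 and 8488 CPM in ctrl and 1964, 14811 and 15561 CPM in treat, log2 fold change 2.3, SE 0.31, adjusted p = 0.00402) rose with it.
Ubd, a ubiquitin-like protein, had 1 UMI at day 1 and 2303 UMIs later, and in treat it was at 0.457, 771 and 645 CPM. RGD1305184 had no UMI at day 1 and was at least 125-fold higher later, taking 3 UMIs over the day 1 samples as the floor. The GTPases Irgm (log2 fold change 5.46, SE 0.64, adjusted p = 0.00099) and Ifi47 (log2 fold change 5.05, SE 0.59, adjusted p = 0.00371), and LOC685067 (log2 fold change 4.98, SE 0.67, adjusted p = 0.00473), were further genes of the naming rule. Free RNA could account for up to 1.13% of the Cxcl9 UMIs in treat. Without the cells that held a C1q UMI, Cxcl9 was at 634 and 486 plain CPM in ctrl days 3 and 7 and at 3104 and 2213 plain CPM in treat days 3 and 7.

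**Figure D4:**
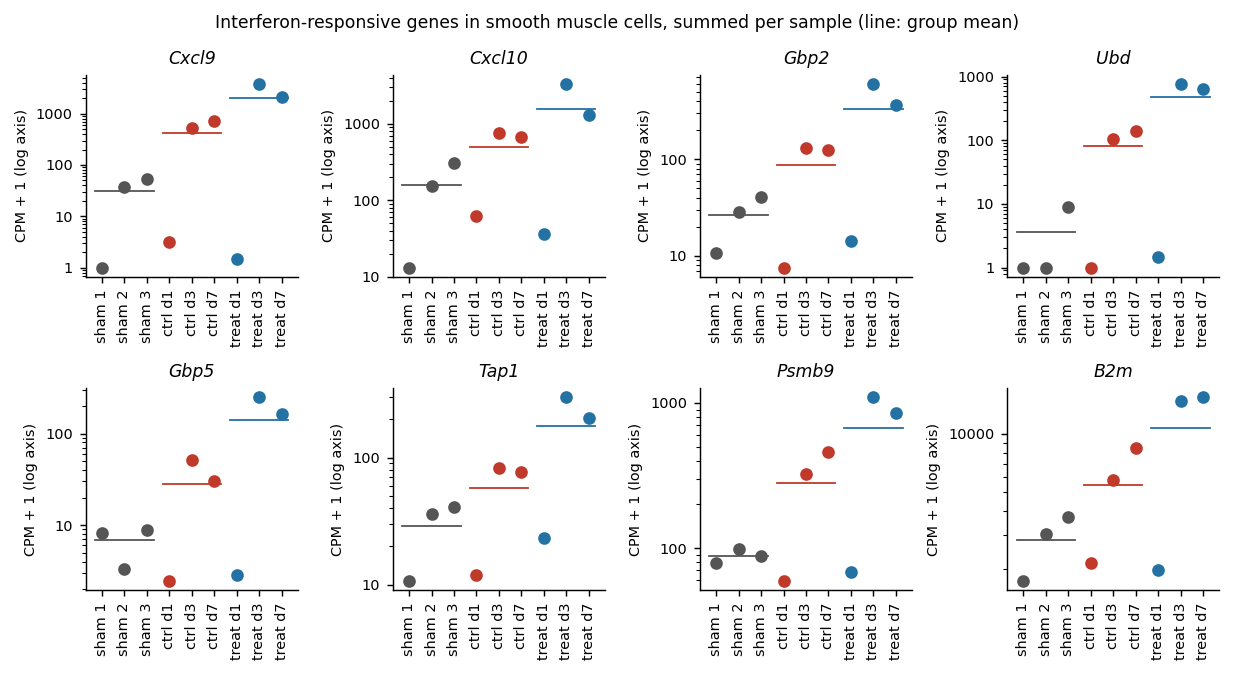
CPM + 1 on a log axis of Cxcl9, Cxcl10, Gbp2, Ubd, Gbp5, Tap1, Psmb9 and B2m in the smooth muscle cells of each sample, with a line at each group mean. In all 8 panels the samples of days 3 and 7 lie above day 1 in both arms, and treat lies above ctrl at both later days. Libraries are summed, and library 3 of ctrl day 7 alone held 39525 plain CPM of the interferon list, above every treat library.

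Some contractile genes were higher at the later days. In that list 8 of 31 tested genes were higher at days 3 and 7 than at day 1, 1 was lower (Actg1, a cytoskeletal actin), and the median was 0.58. No gene of the list passed without treat day 1 and 1 passed without ctrl day 1, with medians of 0.65 and 0.49, and 3 passed without ctrl day 7. The later days lay above day 1 without overlap in 12 of these genes and below in 2, against 15.0% and 15.3% of all genes. Myl9 was at 767, 1415 and 1959.8 CPM in ctrl and 1103, 4188 and 2631 CPM in treat, against 5398, 4798 and 4121 CPM in sham (log2 fold change 1.37, SE 0.25, adjusted p = 0.00675). Smtn, which encodes smoothelin, was at 35, 72.4 and 85.4 CPM in ctrl and 42.5, 106 and 99.0 CPM in treat, against 209, 219.7 and 151 CPM in sham (log2 fold change 1.23, SE 0.22, adjusted p = 0.00609). Mylk, Dmd, Itga8, Casq2, which encodes the calcium-storing calsequestrin, Filip1l and Mrvi1, a target of cGMP-dependent kinase, also rose, with log2 fold changes of 0.98, 1.12, 1.61, 1.70, 1.35 and 0.96. Their later values stayed below every sham value in Mylk, Dmd and Itga8.
The nitric oxide receptor subunit Gucy1a1 was at 43.8, 97.9 and 110.4 CPM in ctrl and 33.8, 117 and 103 CPM in treat, against 221, 134 and 107 CPM in sham (log2 fold change 1.48, SE 0.23, adjusted p = 0.00309). The ATP receptor P2rx1 (log2 fold change 1.51, SE 0.38, adjusted p = 0.0282) and the calcium release channel Itpr1 (log2 fold change 1.01, SE 0.23, adjusted p = 0.0197) rose too, as did the transcription factor Mef2c (log2 fold change 0.98, SE 0.22, adjusted p = 0.0163). The endothelin receptor Ednrb, at 211, 92.0 and 75.7 CPM in ctrl and 113, 61.4 and 45.8 CPM in treat, fell (log2 fold change -1.21, SE 0.21, adjusted p = 0.00492).

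In the matrix list 5 of 40 genes were higher at the later days, 1 was lower, and 36 were positive. The median was 0.45, and 0.015 to 1.12 in the 6 fits with 1 sample left out. Sparcl1, a matricellular protein, was at 1549, 1415 and 1189.9 CPM in sham, 185, 699 and 857 CPM in ctrl and 318, 1042 and 1245 CPM in treat (log2 fold change 1.95, SE 0.22, adjusted p = 0.000269), and day 1 was the lowest in both arms. The basement membrane collagen Col4a5 (log2 fold change 1.70, SE 0.27, adjusted p = 0.00316) and the protease inhibitor Timp3 (log2 fold change 1.67, SE 0.27, adjusted p = 0.00371) rose. So did the proteoglycan Bgn (log2 fold change 0.94, SE 0.26, adjusted p = 0.0438) and Sparc (log2 fold change 0.70, SE 0.19, adjusted p = 0.038). Timp1 fell from day 1 in both arms, with 2798, 1640.3 and 1463 CPM in ctrl and 1861, 1009.9 and 672 CPM in treat (log2 fold change -1.01, SE 0.20, adjusted p = 0.0101). The complement genes C1s (log2 fold change 2.91, SE 0.26, adjusted p = 6.75e-05) and Serping1, the inhibitor of C1 (126, 104 and 95.2 CPM in sham, 96.3, 468 and 489.9 CPM in ctrl and 83.2, 703 and 571 CPM in treat, log2 fold change 2.62, SE 0.25, adjusted p = 7.31e-05), were higher at days 3 and 7. With Cxcl2, of which free RNA could account for 55.7% of the UMIs in ctrl and 68.3% in treat, they were the 3 of 33 inflammatory genes that rose.

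Some cell cycle genes were higher and some chaperone and respiratory chain genes lower at days 3 and 7. In the cell cycle list 6 of 22 genes rose and none fell, with 13 positive, 9 negative and a median of 1.00. The list summed to 1660.3, 2807 and 2199 CPM in ctrl and 2104, 1983 and 1935 CPM in treat, so that its total was not higher at the later days of treat. Among the genes that rose was Top2a, a DNA topoisomerase of dividing cells, at 4.38, 82.2 and 65.3 CPM in ctrl and 12.8, 31.0 and 38.4 CPM in treat (log2 fold change 2.37, SE 0.50, adjusted p = 0.0222). Stmn1, which binds tubulin, was another (log2 fold change 1.49, SE 0.26, adjusted p = 0.00549). Cenpf, a kinetochore protein, was at 0, 41.1 and 61.2 CPM in ctrl and 1.83, 20.9 and 27.8 CPM in treat (log2 fold change 4.83, SE 0.63, adjusted p = 0.00128). In the stress list 6 of 29 fell, 24 were negative and the median was -0.46. Among them was the mitochondrial chaperonin Hspe1, at 488, 178 and 184 CPM in ctrl and 496, 107 and 183 CPM in treat (log2 fold change -1.62, SE 0.23, adjusted p = 0.00148). Hspd1 (log2 fold change -1.13, SE 0.23, adjusted p = 0.0101) and the endoplasmic reticulum chaperone Hspa5 (log2 fold change -0.83, SE 0.21, adjusted p = 0.0265) fell as well.
All 32 respiratory chain genes were negative, with a median of -0.39 that ran from -0.69 to -0.14 in the 6 fits with 1 sample left out. Of these genes 4 fell, among them the ATP synthase subunit Atp5mc1 (log2 fold change -1.01, SE 0.18, adjusted p = 0.00563). The glycolytic genes Pgk1 (log2 fold change -0.89, SE 0.22, adjusted p = 0.0249) and Eno1 (log2 fold change -0.79, SE 0.23, adjusted p = 0.0467) fell and Pfkfb3, which drives glycolytic flux, rose (log2 fold change 2.46, SE 0.51, adjusted p = 0.022). Genes with the lowest ratios by the naming rule were AABR07034362.2, Ptprn (119, 29.4 and 9.67 CPM in ctrl and 51.7, 10.7 and 10.6 CPM in treat), a protein of secretory granules, the neuropeptide gene Npw (88.3, 21.5 and 12.9 CPM in ctrl and 69.0, 8.35 and 15.5 CPM in treat), Cited1, LOC103692719, Acy1, Wdr4, Trmt6, Prmt3 and Cmss1, with log2 fold changes from -5.19 to -1.86. Wdr4 and Trmt6 modify transfer RNA, and of the AABR07034362.2 UMIs in treat free RNA could account for 47.2%. Median depth differed with day as well, at 12606 and 7202 UMIs per smooth muscle cell in ctrl and treat day 1 and 6455 to 9309 UMIs later, and its part in the result was not tested.

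**Figure D5:**
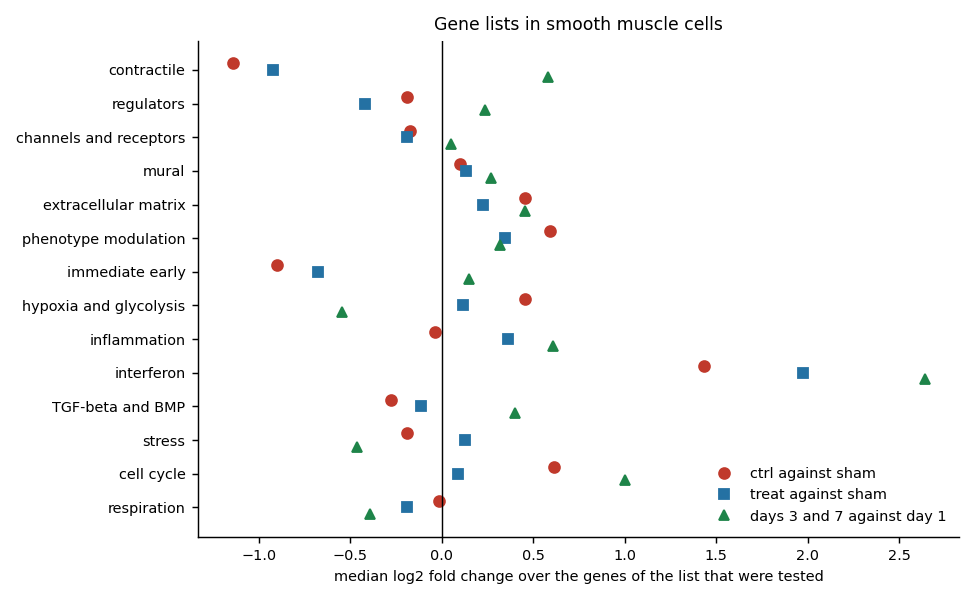
Median log2 fold change over the tested genes of each list in smooth muscle cells for ctrl against sham, treat against sham, and days 3 and 7 against day 1. The contractile list lies at -1.14 and -0.92 against sham and at 0.58 over time, and the interferon list at 1.43, 1.98 and 2.64.

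Crem and Vim are the genes the study is about. Crem, a transcription factor that responds to cyclic AMP, was at 243, 435 and 353 CPM in sham, 207, 161 and 175 CPM in ctrl and 294, 376 and 311 CPM in treat. All ctrl values were below all sham values, and neither ctrl against sham (log2 fold change -0.92, SE 0.26, adjusted p = 0.0996) nor treat against ctrl (log2 fold change 0.85, SE 0.26, adjusted p = 0.999) passed. Vim, which encodes the intermediate filament vimentin, was at 3157, 3094 and 2356 CPM in sham, 2289, 4175 and 4107 CPM in ctrl and 2595, 4036 and 3505 CPM in treat. It was higher at days 3 and 7 than at day 1 in both arms (log2 fold change 0.69, SE 0.18, adjusted p = 0.0345) and did not pass against sham (adjusted p = 0.625 for ctrl and 0.803 for treat).

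The last comparison set the difference between ctrl day 7 and sham beside that in mural cells of the same samples. An edgeR interaction test with the sample as a block used the 6 samples with at least 20 cells of both kinds, so ctrl was represented by day 7 alone and sham by samples 2 and 3, with 22 and 23 mural cells. The spread came from the sham and treat samples, and the lone ctrl sample was assumed to vary like them. It called 43 of 9305 genes (0.462%), 25 with a higher difference in smooth muscle cells (0.269%) and 18 with a lower one (0.193%), against a median of -0.13 over all genes. In the contractile list 5 of 31 genes were called, all with the lower difference in smooth muscle cells, and the median was -1.05. None of the list was called without treat day 7 or without the cells of most UMIs, and 1 was called with DESeq2, with free RNA subtracted or without sham 2, and 2 without sham 3 or treat day 3, with medians from -1.03 to -0.85. For Myl9, plain CPM were 4818 and 4379 CPM in sham and 1989.7 CPM in ctrl day 7 in smooth muscle cells, against 1599.9, 1057 and 1421 CPM in mural cells (log2 difference -1.54, SE 0.33, adjusted p = 0.00262). For Tpm1 they were 3743 and 2659 CPM in sham and 1711 CPM in ctrl day 7 in smooth muscle cells, against 1058, 898 and 1097 CPM in mural cells (log2 difference -1.25, SE 0.34, adjusted p = 0.0441). Smtn (log2 difference -2.27, SE 0.60, adjusted p = 0.0407), Tpm2 (log2 difference -1.36, SE 0.34, adjusted p = 0.0191) and Ppp1r14a (log2 difference -1.45, SE 0.35, adjusted p = 0.0108) went the same way. In these 5 genes the sham level was higher in smooth muscle cells and the 2 cell kinds lay closer together in ctrl day 7. Smtn had 1 and 5 UMIs in the sham mural cells.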

How the data were processed

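Droplet-based 3' scRNA-seq had been done on rat bile duct, and 20 libraries of 9 samples were analysed here. The authors deposited raw UMI counts per gene and barcode, whose headers name Cell Ranger, and the submitters' processing notes name Cell Ranger 5.0.1 and Seurat 3.2.0. The genome build is not given in the sources used here. No column of per-sample values was left unmapped.

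Cells had more than 400 and fewer than 6000 genes, with mitochondrial RNA below 25% and hemoglobin RNA below 3% of UMIs. No doublet caller was run, and cells with Ptprc, Epcam or Lum were left out by the rule. UMIs of the smooth muscle cells were summed per sample, with at least 20 cells per sample, and tested with the quasi-likelihood test of edgeR 4.0.16 in R 4.3.3 (TMM factors, genes kept by filterByExpr, 1 fit over all 9 samples, Benjamini-Hochberg adjustment, threshold 0.05). The biological coefficient of variation was 0.325. The SE was derived from the log2 fold change and the F statistic. Shares were tested with two-sided exact permutation tests in scipy 1.17.1. Depth was 237295 to 2191484 UMIs per sample in smooth muscle cells, so that 3 counts equal 1.37 to 12.6 CPM, and intervals and floors cover counting error only. Free RNA was estimated from barcodes with at most 100 UMIs, by their 10 highest genes of the myeloid, lymphoid and epithelial lists. The code of the fit was run on simulated counts with known changes, which checks the code and not the results.

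The cells and the gene lists were chosen with earlier results of these data known. Genes were named by rule: per comparison, the 10 with the largest and the 10 with the smallest log2 fold change among called genes whose groups did not overlap, with at least 20 CPM in the higher group and at most 25% of UMIs from free RNA (2, 1, 0 and 13 genes were left out for free RNA in the 4 comparisons over smooth muscle cells), without genes of the rule, of ribosomal proteins or of other cell types. Where under 5 were called, the 10 of smallest p that met the same conditions were named. Called genes and the 4 highest genes of each list, and Crem and Vim, could be named too. Srf, Kcnj8, Ednra, Cald1 and Vcl are list members outside these rules and were picked besides. So were some genes of the split by Actg2, the receptors at or near 0 UMIs, and some genes called with the day as a block. Alternatives were DESeq2 1.42.0, other scalings, no filter, a stricter rule, fewer cells, libraries as samples, subtraction of free RNA, the day as a block, and leaving out each sample. Alternatives with thinned cells, cells with Myh11 and Cnn1 (both genes of the rule, lower after LT), cells with over 1% of UMIs from other cell types left out, treat day 7 without library 2, and the comparison over days were chosen after seeing the data. Results of a few genes are not reported here.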

Additional observations from a re-analysis of the deposited data

Results flagged for a closer look

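In 29 named genes the difference of ctrl against sham in smooth muscle cells was not that in mural cells by the edgeR interaction test, with ctrl day 7 as the only ctrl sample and 22 and 23 mural cells in the sham samples. The lone ctrl sample was assumed to vary like the sham and treat samples, which gave the spread. Values are the log2 difference in smooth muscle cells minus that in mural cells, and all CPM given with them are plain CPM.

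Among contractile genes it was -2.27 for Smtn, -1.54 for Myl9, -1.45 for Ppp1r14a, -1.36 for Tpm2 and -1.25 for Tpm1. The value of Smtn rests on 1 and 5 UMIs in the sham mural cells. Elastin, Eln, went the other way at 1.68, with plain CPM of 796 and 649 CPM in sham and 447 CPM in ctrl day 7 in smooth muscle cells, against 222, 445 and 57.7 CPM in mural cells.

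Values above 0 were 3.95 for the chemokine Cxcl12, 1.86 for Cxcl10, 2.55 for the growth factor binding protein Igfbp3, 2.27 for Ltbp1, which holds latent TGF-beta in the matrix, and 1.68 for the TGF-beta target Ccn2. Igfbp3 was at 46.4 and 42.1 CPM in sham and 151 CPM in ctrl day 7 in smooth muscle cells, against 455, 517 and 239.7 CPM in mural cells. Cxcl12 was at 137 and 67.4 CPM in sham and 78.5 CPM in ctrl day 7 in smooth muscle cells, against 1834, 1438 and 69.2 CPM in mural cells, and the difference lay mainly in the mural cells. The secreted proteins Cxcl2 (-3.85), Tfpi2 (-1.76), an inhibitor of proteases, and Spink8 (-2.06) were below 0. Cxcl2 had 0 and 2 UMIs in the sham mural cells, so its value is fitted on a group near 0, and free RNA could account for 55.7% of its UMIs in the smooth muscle cells of ctrl.

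Others above 0 were 5.94 for Rbp7, 4.24 for Gpihbp1, which carries lipoprotein lipase on capillary endothelium, 2.42 for the lipoprotein receptor Scarb1, 3.12 for the lipase Mgll, 3.86 for Enpp1, 3.73 for the RNA editing enzyme Adarb1 and 2.90 for the metallothionein Mt3. Mt3 was at 90.6 and 88.5 CPM in sham and 39.3 CPM in ctrl day 7 in smooth muscle cells, against 86.1, 63.6 and 3.67 CPM in mural cells, lower in ctrl day 7 in both cell kinds. Rbp7 was at 4.64 and 4.21 CPM in sham and 73.6 CPM in ctrl day 7 in smooth muscle cells, against 12.3, 215 and 21.1 CPM in mural cells, resting on 2 and 1 UMIs in the sham smooth muscle cells. Enpp1 had 2 and 1 UMIs in the same cells and 2 and 9 UMIs in the sham mural cells. Gpihbp1 had 3 and 3 UMIs and 2 and 15 UMIs, and Mgll 7 and 3 UMIs and 6 and 6 UMIs. Of 15 endothelial markers tested, 11 were above 0 with a median of 0.55, against -0.13 over all genes, and none was called.

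Lower by this measure were Coq10b (-2.44), Rcan2 (-2.14), a calcineurin regulator, Ndrg2 (-1.97), Idh2 (-1.93), Sod2 (-1.60), Nr4a2 (-1.48) and the metallothionein Mt1 (-1.31). Il1b had a fitted value of -8.66, which is no bound because mural cells of both sham samples had no Il1b UMI. Of 17 myeloid markers tested, 13 were below 0, with a median of -3.54. The part of either marker list in these values was not tested.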

How the results depend on the processing

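For ctrl against sham, where 104 genes were called, DESeq2 gave 262, no filter on low counts 536 and the rule on thinned cells 38. Cells with Myh11 and Cnn1 gave 6, all of them higher and none lower. Leaving out library 2 of treat day 7 gave 62, and leaving out single samples 0 to 194. It gave 27 without ctrl day 1, 20 without sham 1 and 37 without sham 3. For treat against sham (1 gene) DESeq2 gave 75, no filter 398, libraries as samples 12, single samples left out 0 to 15, and the other changed counts were 0, from at most 200 cells per sample, cells with Myh11 and Cnn1, subtraction of free RNA, thinned cells, library size only, the stricter rule, leaving out library 2 of treat day 7, and cells with fewer than 3 UMIs of other cell types, where only sham 2, treat day 1 and treat day 3 had enough cells. For treat against ctrl (0 genes) the day as a block gave 19, DESeq2 4, no filter 128, cells with Myh11 and Cnn1 1, and single samples left out 0 to 2. Days 3 and 7 against day 1 (747 genes) gave 105 to 727. The interaction (43 genes) gave 7 with DESeq2, 19 with free RNA subtracted, 14 with libraries as samples, 12 without the cells of most UMIs, 25 without library 2 of treat day 7, and 19 to 45 with single samples left out, and its median over all genes moved from -0.13 to 0.06 with library size only. It was not run without ctrl day 7, with the stricter rule, with thinned cells, with cells of Myh11 and Cnn1, or without cells with at least 3 UMIs of other cell types, for lack of samples with enough cells. The share of treat against sham reversed from -0.295 to 0.166 percentage points among cells with no Ptprc, and leaving out single samples gave -0.697 to 0.222. The cause of these moves was not tested. None of the called genes named in the text reversed in its comparison, while genes named without a call could do so, as Actb did for ctrl against sham (-0.41 to 0.08). Depth limits genes near 1.37 to 12.6 CPM, the level of 3 counts per sample.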
